A study of Mus musculus with 8 samples.

Results

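The Cyp2c genes encode a subfamily of cytochrome P450 monooxygenases, and 10 of them were followed here in mouse liver: Cyp2c23, Cyp2c29, Cyp2c37, Cyp2c38, Cyp2c39, Cyp2c40, Cyp2c50, Cyp2c54, Cyp2c55 and Cyp2c70. They were chosen by gene symbol, and where a gene had several probes the one with the highest mean over the 8 arrays was taken, so that no difference between groups entered the choice of probe. Of the 10 genes, 9 had a probe among the 19321 genes on the array, and all 9 were measured on all 8 arrays. Cyp2c40 had no probe in the probe table used here and has no value. Cyp2c38 was the only one with more than 1 probe, and it had 2. The genes are close in sequence and the probes' sequences were not used here, so a value may include RNA of a related Cyp2c gene, which was not tested.

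Total RNA was hybridised to 8 single-colour oligonucleotide arrays, 1 per tissue sample. The tumour group held 3 tumours from livers of DMBA-treated mice on high fat diet (mice 117, 186 and 1), and the non-tumour group held 3 samples of non-tumour tissue from livers with the same 3 mouse numbers. The normal diet group held 2 livers of DMBA-treated mice on normal diet (mice 117 and 120), where the number 117 belongs to another animal. DMBA is a chemical carcinogen. Every mouse of all 3 groups received it when 4 to 5 days old and was kept on its diet for 30 weeks. No group without DMBA is among these samples, so diet is compared on a carcinogen-treated background, and the strain and the sex of the mice are not given in the sources used here. All samples are pieces of whole tissue, so that fewer cells of a type and less RNA per cell cannot be told apart.

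Cytochrome P450 enzymes of the Cyp2c subfamily sit in the endoplasmic reticulum of hepatocytes and insert oxygen into drugs, steroids and fatty acids. Several of the mouse members turn arachidonic acid into epoxides or hydroxylated fatty acids that act as lipid signals, and 1 member, Cyp2c70, makes the muricholic acids that set mouse bile acids apart from human ones. Their transcription in liver is known to depend on HNF4A and on the xenobiotic receptors CAR and PXR.

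The genes lie on mouse chromosome 19. In the RefSeq annotation of GRCm38.p6 their order by position was Cyp2c55, Cyp2c29, Cyp2c39, Cyp2c38, Cyp2c40, Cyp2c37, Cyp2c54, Cyp2c50, Cyp2c70 and Cyp2c23, with Cyp2c67 and Cyp2c68 before Cyp2c40 and Cyp2c69 after it. The first gene starts at position 39006940 and Cyp2c70 ends at position 40187286, while Cyp2c23 (also called Cyp2c44) lies apart at chr19:44005022-44029256. Promoter sequences were found in the RefSeq promoter table for 8 of the 10 genes, of which 7 were measured. Proximal promoters of 6 measured genes are printed, and in each the stretch closest to the HNF4 core motif CAAAGTCCA is in capitals. Where several stretches were equally close, the one nearest the start is marked. The bases lie before the annotated gene and are read 5′ to 3′ on the gene's own strand. Their positions are chr19:39286935-39287043 on the plus strand (Cyp2c29), chr19:39463104-39463225 on the minus strand (Cyp2c38), chr19:39347196-39347345 on the plus strand (Cyp2c39), chr19:39992274-39992423 on the plus strand (Cyp2c37), chr19:40089529-40089678 on the plus strand (Cyp2c50) and chr19:40187287-40187436 on the minus strand (Cyp2c70).
Cyp2c29: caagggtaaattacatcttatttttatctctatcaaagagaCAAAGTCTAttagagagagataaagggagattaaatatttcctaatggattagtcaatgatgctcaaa
Cyp2c38: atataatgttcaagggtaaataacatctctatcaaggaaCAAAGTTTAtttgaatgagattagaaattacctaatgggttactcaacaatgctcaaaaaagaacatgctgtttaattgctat
Cyp2c39: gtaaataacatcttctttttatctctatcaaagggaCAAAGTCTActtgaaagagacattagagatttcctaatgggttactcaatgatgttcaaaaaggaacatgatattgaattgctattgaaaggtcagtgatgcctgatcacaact
Cyp2c37: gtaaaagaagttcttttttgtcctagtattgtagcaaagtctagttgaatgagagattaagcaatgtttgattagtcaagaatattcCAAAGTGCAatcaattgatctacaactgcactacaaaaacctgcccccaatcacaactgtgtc
Cyp2c50: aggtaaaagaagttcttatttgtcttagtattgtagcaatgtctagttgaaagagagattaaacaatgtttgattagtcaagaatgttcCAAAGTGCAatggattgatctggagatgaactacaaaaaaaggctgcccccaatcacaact
Cyp2c70: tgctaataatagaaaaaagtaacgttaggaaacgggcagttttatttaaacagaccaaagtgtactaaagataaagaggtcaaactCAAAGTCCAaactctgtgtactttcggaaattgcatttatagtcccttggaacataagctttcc

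The 250 bases before the start listed for each promoter were compared between promoters and searched for motifs. For Cyp2c29, Cyp2c38, Cyp2c55 and Cyp2c67 that start lies inside the annotated gene, so part of the searched bases lies within the gene. Cyp2c37 and Cyp2c50 were identical in 84.3% of aligned positions, Cyp2c38 and Cyp2c39 in 75.8%, and Cyp2c29 and Cyp2c39 in 74.1%. Cyp2c70 matched the other members printed here in 46.6% to 47.3%. Searched on both strands, CAAAGTCCA occurred in 126 of 32851 RefSeq promoters of the same length (0.384%) and in 5 of 12 Cyp2c promoters, a set that holds 2 starts for Cyp2c39 and the genes Cyp2c67, Cyp2c68 and Cyp2c69. The 5 were those of Cyp2c40, Cyp2c67, Cyp2c68, Cyp2c69 and Cyp2c70. The match in Cyp2c70 lay 64 to 56 bases before the start.

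In the other members the closest stretch differed from the motif, with positions counted from 1 at the motif's 5′ end and the motif's base given first. Where several stretches were equally close, the one nearest the start was taken. Cyp2c29 and both starts of Cyp2c39 carried C8T, Cyp2c37 and Cyp2c50 carried C7G, Cyp2c55 carried A3G, and Cyp2c38 carried both C7T and C8T. Cyp2c37 also held caaagtcta, with C8T, further from the start, so C8T does not set Cyp2c29 and Cyp2c39 apart from it. A stretch with at most 1 mismatch was present in 7.05% of all promoters, against 11 of 12 Cyp2c promoters. TATAAA was found in 12.4% of all promoters and in those of Cyp2c29, Cyp2c38, Cyp2c55, Cyp2c67 and Cyp2c70. The matches of Cyp2c29 and Cyp2c55 lay inside the annotated gene, and those of Cyp2c38 and Cyp2c67 spanned its edge. AGGTCA, the core of many nuclear receptor motifs, was found in 14.0% of all promoters and in those of Cyp2c29, Cyp2c70 and 1 start of Cyp2c39. GTTAAT, part of the HNF1 motif, was found in 6.43% of all promoters and in 3 Cyp2c promoters, and CCAAT in 33.8% and in 4. The full HNF1 palindrome and direct repeats of AGGTCA with a spacer of 1 or 4 bases were not in the searched windows of the 12 Cyp2c promoters. Shorter motifs can lie within longer ones, and a match describes letters only.

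Levels are given below as deposited intensities, a linear scale on which the median listed probe of each array is 25, so that a value of 250 is well above the typical probe. Group differences are log2 fold changes with standard errors (SE) from a limma model of all 8 arrays, fitted to quantile normalised scanner signals with an offset of 50. That offset makes the fold changes of dim probes smaller than the ratios of deposited values. A gene was called changed where its p-value, adjusted over all 16800 genes tested, was below 0.05. The p-values measure the spread between these arrays. All 10 hepatocyte markers examined were listed on the arrays, and their summed intensity was 231690 to 256120 in tumours, 226242 to 242589 in non-tumour tissue and 266418 to 276098 in normal diet liver. Albumin lay at 45194.4 to 48627.9 in tumours, 44979.7 to 48176.7 in non-tumour tissue and 52761.6 to 56457.9 in normal diet liver.

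Across the family, 7 of the 9 measured genes were called lower in tumours than in non-tumour tissue of the same livers, and 0 were called higher. Over all genes tested 13.4% were called lower, 12.0% higher and 25.4% in either direction. The 7 were Cyp2c23, Cyp2c37, Cyp2c38, Cyp2c39, Cyp2c50, Cyp2c54 and Cyp2c55. With the mouse as a replicate block the calls were 3 of 9 lower, those of Cyp2c38, Cyp2c39 and Cyp2c55, where 11.0% of all genes tested were called lower and 9.77% higher. The remaining members, Cyp2c29 and Cyp2c70, were not called. At an unadjusted p below 0.05 there were 8 lower, against 19.6% of all genes tested, and 1 higher (Cyp2c70), against 17.4%. In 8 of the 9, Cyp2c70 excepted, the highest tumour array lay below the lowest non-tumour array in normalised log2 value, which was so for 22.3% of all genes tested. The median log2 fold change was -1.88 over the 9 genes and -0.0061 over all genes tested. With the local background, read around each spot, in place of blank spots, 1 member (Cyp2c39) and 136 genes in all were called. The log2 fold changes of Cyp2c38, Cyp2c39 and Cyp2c55 were then -1.17, -0.554 and -0.135.

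**Figure D1:**
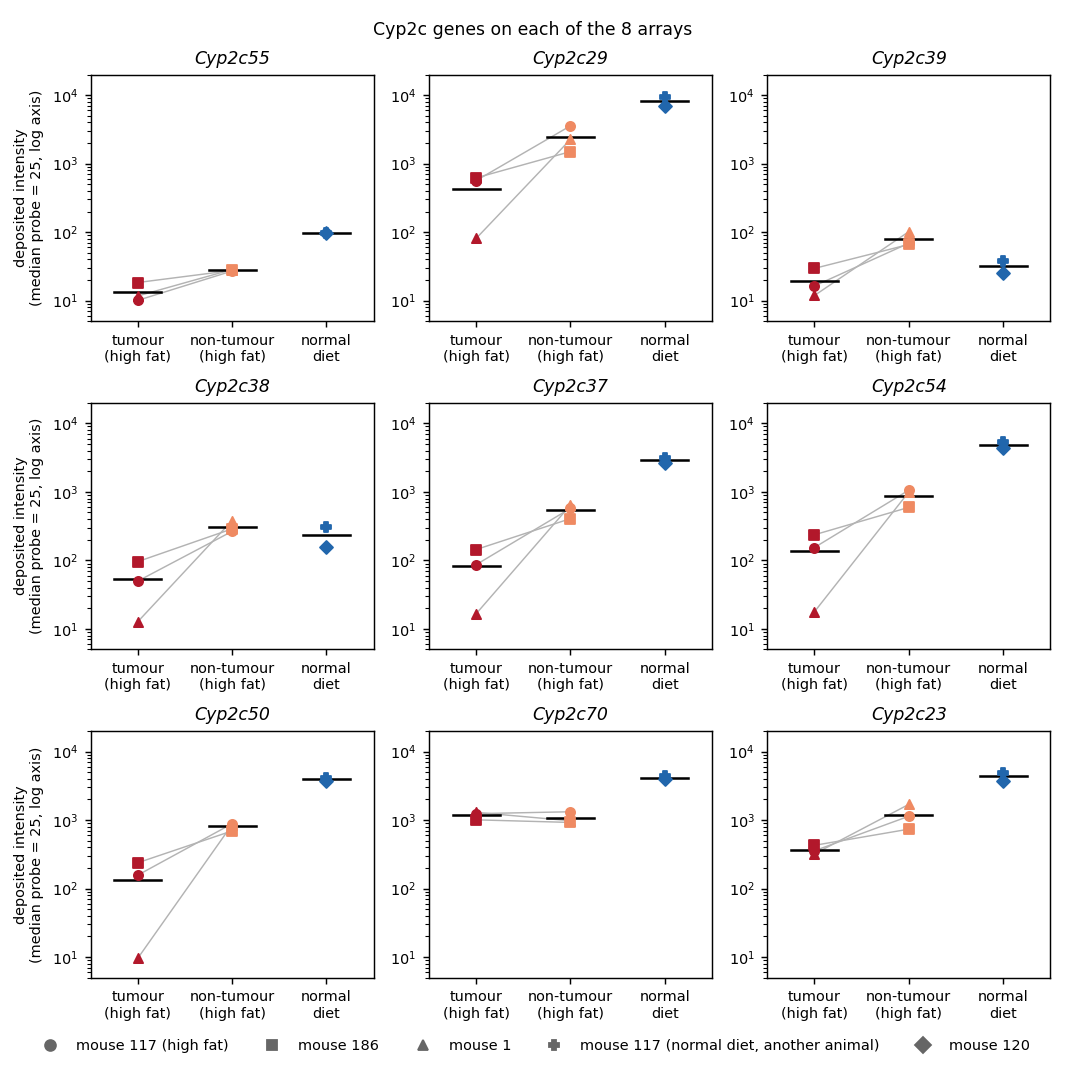
Deposited intensity (log axis, median probe 25) of the 9 measured Cyp2c genes on each of the 8 arrays, with points for mice, grey lines between tumour and non-tumour tissue of the same liver, and black bars for group means. Tumour 1 is the lowest array for most genes, Cyp2c70 overlaps between tumours and non-tumour tissue, and Cyp2c38 and Cyp2c39 do not have their highest mean in normal diet liver.

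Cyp2c37, Cyp2c50 and Cyp2c54 are neighbours on the chromosome and encode fatty acid oxygenases that act on arachidonic acid in mouse. Cyp2c37 had 86.5, 143.9 and 16.6 in tumours 117, 186 and 1, against 574.9, 406.9 and 642.4 in their non-tumour tissue and 3166.7 and 2612.5 in normal diet livers 117 and 120. The 3 groups did not overlap, and tumour 1 was far below the other tumours. Cyp2c50 had 157.1, 238.1 and 9.6 in the tumours, 885.3, 694.7 and 859.0 in non-tumour tissue, and 4158.9 and 3757.0 in normal diet liver. Cyp2c54 had 154.1, 236.5 and 17.8 in the tumours, 1059.9, 594.5 and 999.4 in non-tumour tissue, and 5305.5 and 4441.7 in normal diet liver. All 3 genes thus stepped down in the same order of groups, with the tumour of mouse 1 lowest and that of mouse 186 highest among tumours.

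Between tumours and non-tumour tissue, the log2 fold change was -2.20 ± 0.42 (SE) for Cyp2c37 (limma adjusted p = 0.0112, and 0.0583 with the mouse as a replicate block), and -0.403 with the local background (adjusted p = 0.953). It was -2.38 ± 0.61 for Cyp2c50 (adjusted p = 0.0316, and 0.0769 with the block) and -2.42 ± 0.58 for Cyp2c54 (adjusted p = 0.0258, and 0.0835 with the block). On the deposited scale the tumour means were 6.58-fold, 6.03-fold and 6.50-fold lower for Cyp2c37, Cyp2c50 and Cyp2c54. Cyp2c50 was no longer called without any 1 array other than tumours 186 and 1 (adjusted p = 0.0529 to 0.0888), and Cyp2c54 was not called without non-tumour 117 (adjusted p = 0.0803) or non-tumour 1 (adjusted p = 0.0782). Without tumour 1 the 3 log2 fold changes were -1.72, -1.62 and -1.73 (adjusted p = 0.00456, 0.00224 and 0.01).

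Set against normal diet liver, tumours had these genes 35.1-fold (Cyp2c37), 29.3-fold (Cyp2c50) and 35.8-fold (Cyp2c54) lower in mean deposited intensity. The log2 fold changes were -4.27 ± 0.47 (adjusted p = 0.00153), -4.35 ± 0.68 (adjusted p = 0.00509) and -4.63 ± 0.65 (adjusted p = 0.00354). Non-tumour tissue had means 5.34-fold, 4.87-fold and 5.51-fold below normal diet liver for Cyp2c37, Cyp2c50 and Cyp2c54, with log2 fold changes of -2.06 ± 0.47, -1.97 ± 0.68 and -2.21 ± 0.65. None of those 3 was called in the fit of all 8 arrays (adjusted p = 0.0687, 0.175 and 0.127). They stayed uncalled in 15, 17 and 17 of the 19 alternatives run for this comparison. In a fit of the 5 non-tumour and normal diet arrays alone all 3 were called, at adjusted p = 0.019, 0.0099 and 0.029. That fit called 816 genes in all, against 645 in the fit of all 8 arrays. Leaving out tumour 1 from the fit of all arrays also gave calls for them, at adjusted p = 0.0122, 0.00656 and 0.0185. Leaving out tumour 186 gave a call for Cyp2c37 (adjusted p = 0.046). In these 2 fits 783 and 772 genes in all were called.

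Cyp2c29, an abundant hepatic epoxygenase of mouse and a target of CAR, had 565.8, 620.2 and 80.9 in tumours 117, 186 and 1. Its non-tumour values in the same mice were 3567.5, 1499.4 and 2264.3, and normal diet livers had 9432.4 and 6878.4. No array of one group reached into another. The log2 fold change between tumours and non-tumour tissue was -2.46 ± 0.74 with a 95% interval of -4.23 to -0.69, and it just missed the call (limma adjusted p = 0.0533, and 0.0919 with the mouse as a block). It stayed uncalled in 12 of 20 alternatives and was called in 8. These included the fits without tumour 1 (log2 fold change -1.60, adjusted p = 0.0299) and without tumour 186 (-2.92, adjusted p = 0.045). The deposited values with a pseudocount of 10 also gave a call (-2.85, adjusted p = 0.0154). Cyp2c29 was lower in tumours than in normal diet liver, at a log2 fold change of -4.02 ± 0.82 (adjusted p = 0.0137), a call lost without normal diet 117 (adjusted p = 0.0897) or 120 (adjusted p = 0.0653). Non-tumour tissue differed from normal diet liver by -1.56 ± 0.82 (adjusted p = 0.354).

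Cyp2c23, the arachidonic acid epoxygenase known in mouse as Cyp2c44, had tumour values of 356.0, 428.0 and 320.9, non-tumour values of 1138.8, 737.1 and 1695.8, and normal diet values of 4944.1 and 3736.4. Its tumours lay close together, unlike those of Cyp2c50 or Cyp2c29, and the groups did not overlap. It was lower in tumours, at a log2 fold change of -1.30 ± 0.28 over non-tumour tissue (adjusted p = 0.0171, and 0.0818 with the mouse as a block) and of -2.93 ± 0.31 over normal diet liver (adjusted p = 0.00138). The call against non-tumour tissue was lost without non-tumour 117 (adjusted p = 0.0536), tumour 117 (adjusted p = 0.0506) or tumour 1 (adjusted p = 0.0511). Non-tumour tissue was lower than normal diet liver by -1.64 ± 0.31 (adjusted p = 0.0436), which was not called without any 1 array other than non-tumour 1 (adjusted p = 0.0514 to 0.241).

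Cyp2c38 and Cyp2c39 overlap in position and had another order of groups. Cyp2c38, an arachidonic acid epoxygenase, had 49.8, 95.9 and 12.7 in tumours, 265.5, 288.6 and 381.6 in non-tumour tissue, and 307.0 and 158.5 in normal diet liver. Cyp2c39, known in mouse as a retinoic acid hydroxylase, had 16.4, 29.6 and 11.9 in tumours, 69.0, 66.1 and 101.8 in non-tumour tissue, and 38.2 and 25.3 in normal diet liver. For both genes the tumours lay below their non-tumour tissue, and non-tumour tissue had the highest mean of the 3 groups. Non-tumour and normal diet values overlapped for Cyp2c38 and not for Cyp2c39.

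Both genes fell in tumours relative to non-tumour tissue, Cyp2c38 at a log2 fold change of -1.88 ± 0.35 (adjusted p = 0.0107, and 0.0446 with the mouse as a block) and Cyp2c39 at -0.94 ± 0.13 (adjusted p = 0.00311, and 0.0335 with the block). Cyp2c39 rose in non-tumour tissue relative to normal diet liver, by 0.71 ± 0.14 (adjusted p = 0.0487). That call was lost without any 1 array other than tumours 186 and 1 (adjusted p = 0.0832 to 0.254). Cyp2c38 differed between non-tumour tissue and normal diet liver by 0.53 ± 0.40 (adjusted p = 0.532). Against normal diet liver, tumours had lower Cyp2c38 by -1.35 ± 0.40 (adjusted p = 0.0466), lost without any 1 array other than tumour 186 (adjusted p = 0.0564 to 0.248), and Cyp2c39 at -0.24 ± 0.14 (adjusted p = 0.258).

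A second probe for Cyp2c38 read 28.1, 73.7 and 10.3 in tumours, 262.8, 275.7 and 411.2 in non-tumour tissue, and 130.4 and 63.8 in normal diet liver. It gave a log2 fold change of -2.13 (adjusted p = 0.00455) between tumours and non-tumour tissue. Between tumours and normal diet liver it gave -0.71 (adjusted p = 0.186), and between non-tumour tissue and normal diet liver 1.42 (adjusted p = 0.0856). Both probes thus put non-tumour tissue above the tumours, and the second probe separated non-tumour tissue from normal diet liver more widely.

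Cyp2c55, a fatty acid hydroxylase known in mouse for its expression in colon and its induction in liver by xenobiotics, was dim throughout. It had 10.1, 18.4 and 11.7 in tumours, 27.1, 27.6 and 28.5 in non-tumour tissue, and 96.8 and 97.9 in normal diet liver. The non-tumour arrays were nearly identical, as were the normal diet arrays, and the groups did not overlap. Cyp2c55 was called in all 3 comparisons, at log2 fold changes of -0.32 ± 0.04 for tumours over non-tumour tissue (adjusted p = 0.00237), -1.19 ± 0.04 for tumours over normal diet liver (adjusted p = 5.14e-05) and -0.87 ± 0.04 for non-tumour tissue over normal diet liver (adjusted p = 0.00105). In deposited means it was 2.07-fold lower in tumours than in non-tumour tissue, and 3.51-fold lower in non-tumour tissue than in normal diet liver.

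Cyp2c70, the enzyme that makes muricholic acids in mouse, was lower in both high fat diet groups than in normal diet liver, and its difference between tumours and non-tumour tissue was not called. It had 1240.1, 1007.8 and 1295.9 in tumours, 1322.4, 923.7 and 976.4 in non-tumour tissue, and 4367.4 and 3974.6 in normal diet liver. Tumour and non-tumour values overlapped, although the tumour was the higher of the pair in all 3 mice on the normalised scale (0.187, 0.47 and 0.603 on log2 in mice 117, 186 and 1), and every high fat diet array lay below both normal diet arrays. Cyp2c70 was lower than in normal diet liver, at log2 fold changes of -1.24 ± 0.16 in tumours (adjusted p = 0.00259) and -1.66 ± 0.16 in non-tumour tissue (adjusted p = 0.0064). Without normal diet 117 or 120 the second of these was not called (adjusted p = 0.0555 and 0.0545). Between tumours and non-tumour tissue the log2 fold change was 0.42 ± 0.14 with a 95% interval of 0.08 to 0.76 and an unadjusted p = 0.0236 by limma, which was not called after adjustment (adjusted p = 0.078, and 0.0625 with the mouse as a block). It was called higher in 1 of 20 alternatives, the fit without non-tumour 117 (0.59, adjusted p = 0.00653).

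**Figure D2:**
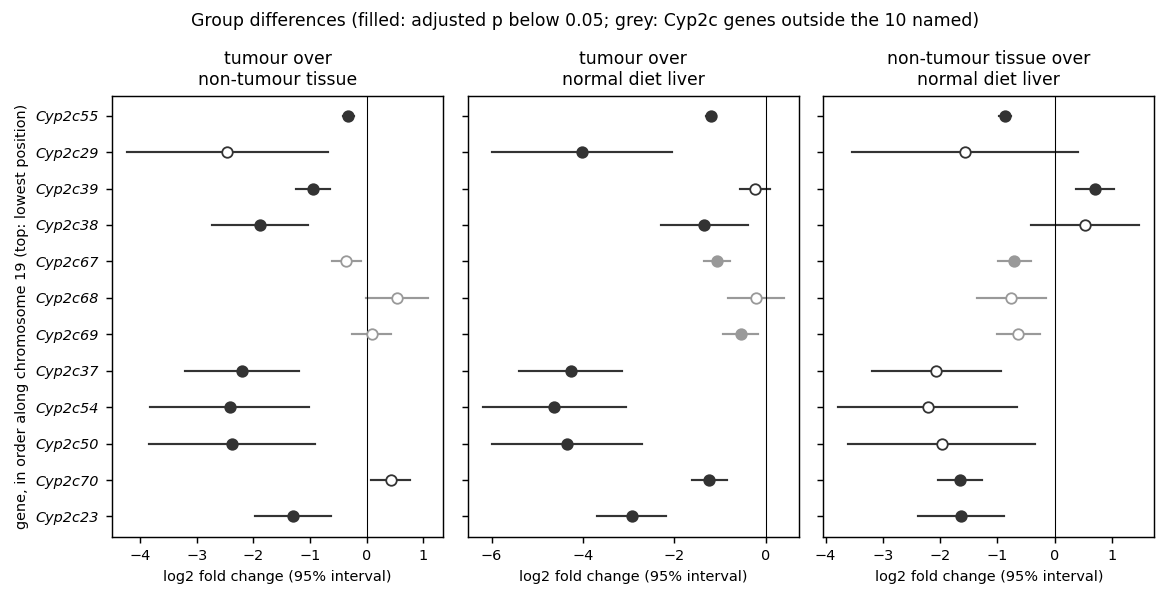
Log2 fold changes with 95% intervals of the 12 measured Cyp2c genes in chromosome order, for tumours over non-tumour tissue, tumours over normal diet liver and non-tumour tissue over normal diet liver, with filled points for adjusted p below 0.05 and grey for genes outside the 10. Tumours were called lower than non-tumour tissue in 7 of the 9 black genes, and Cyp2c39 is the only black filled point right of 0 in the diet comparison.

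In tumours relative to normal diet liver, 8 of the 9 genes were called lower and Cyp2c39 was not called. Over all genes tested 15.0% were called lower and 12.9% higher. The same 8 had no overlap between the groups, which was so in the lower direction for 31.8% of all genes tested. Between non-tumour tissue and normal diet liver, 4 of the 9 were called, where 3.84% of all genes tested were called. The 3 lower genes were Cyp2c23, Cyp2c55 and Cyp2c70, where 2.03% of all genes tested were called lower, and the 1 higher gene was Cyp2c39, where 1.81% were called higher. Of the 9, 7 lay below normal diet liver without overlap, where 23.0% of all genes tested did so, and 1 lay above it (21.0% of all genes). This count of 4, where 645 genes in all were called, was 2 without non-tumour 117, tumour 117 or non-tumour 186, where 256, 469 and 257 genes in all were called. It was 6 without tumour 1, where 783 genes in all were called. The count also fell when either of the 2 normal diet arrays was left out, as did the number of all genes called. The median log2 fold change of the 9 genes was -2.93 for tumours and -1.64 for non-tumour tissue, both over the same 2 normal diet livers.

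The depth of the difference between a tumour and its own non-tumour tissue varied among the 3 livers. In mouse 117 the tumour held 14.5% to 93.8% of its own non-tumour intensity over the 9 genes, with a median of 18.8%, and all 9 were lower on this deposited scale. In mouse 186 the range was 33.2% to 109% and the median 41.4%, with 8 of 9 lower. In mouse 1 it was 1.12% to 133% with a median of 3.57%, again with 8 of 9 lower. Cyp2c70 was the gene above 100% in mice 186 and 1. On the normalised log2 scale used for the tests, 8 of 9 genes were lower in each of the 3 mice. The sign of Cyp2c70 in mouse 117 turned with the scale, since its normalised differences of tumour minus non-tumour tissue were 0.187, 0.47 and 0.603 in mice 117, 186 and 1.

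Tumour 1 was the lowest of all 8 arrays for 7 of the 9 genes, the others being Cyp2c55, lowest in tumour 117, and Cyp2c70, lowest in non-tumour 186. Its Cyp2c50 reached 1.12% of the level in its own non-tumour tissue, a ratio of 89.5-fold that rests on 1 dim reading of 9.6, and its normalised difference was -3.92 on log2 with the offset of 50. Its Cyp2c54 reached 1.78%, Cyp2c37 2.58%, Cyp2c38 3.33% and Cyp2c29 3.57%. The same tumour held 18.9% for Cyp2c23, 41.1% for Cyp2c55 and 133% for Cyp2c70. Within this 1 tumour the members thus lay between 1.12% and 133% of their non-tumour level. On the array of tumour 1, 85.8% of probes were listed with a value, within the 81.8% to 88.5% of the other arrays.

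**Figure D3:**
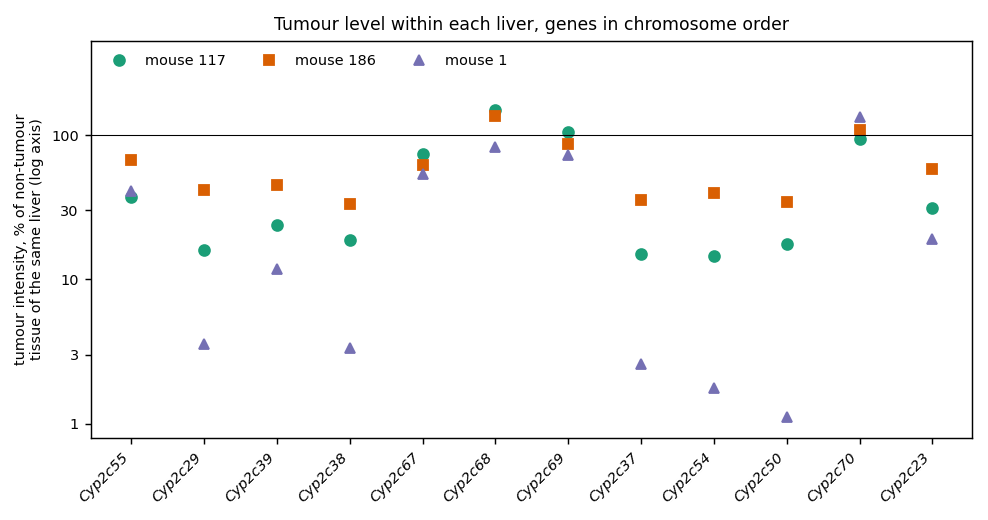
Tumour intensity as a percentage of non-tumour tissue in the same liver (log axis) for the 12 measured Cyp2c genes in chromosome order, with 1 symbol per mouse and a line at 100%. Mouse 1 has the lowest points for Cyp2c29, Cyp2c38, Cyp2c37, Cyp2c54 and Cyp2c50, at 1.12% to 3.57%, while Cyp2c70 lies at 93.8% to 133% in the 3 livers (above its non-tumour level in all 3 after normalisation).

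The 3 other Cyp2c genes on the array, chosen after their values were seen, lie between Cyp2c38 and Cyp2c37 on the chromosome and share the full CAAAGTCCA motif with Cyp2c70. Cyp2c67 had 922.8, 784.9 and 927.6 in tumours, 1259.2, 1266.4 and 1718.4 in non-tumour tissue, and 2993.1 and 2620.8 in normal diet liver. Cyp2c68 had 941.6, 1044.2 and 731.1 in tumours, 626.6, 773.2 and 884.7 in non-tumour tissue, and 1947.3 and 1202.8 in normal diet liver. Cyp2c69 had 1406.1, 1204.4 and 1353.5 in tumours, 1337.4, 1398.1 and 1870.0 in non-tumour tissue, and 3352.3 and 2466.5 in normal diet liver. None of the 3 was called between tumours and non-tumour tissue, at log2 fold changes of -0.36 (adjusted p = 0.0535), 0.54 (adjusted p = 0.14) and 0.08 (adjusted p = 0.736) for Cyp2c67, Cyp2c68 and Cyp2c69. That of Cyp2c69 was -0.16 with arrays scaled to the same median and -0.20 on the deposited values, and that of Cyp2c67 was called lower with the median scaling (-0.615, adjusted p = 0.00948) and on the deposited values (-0.67, adjusted p = 0.00787). The measured genes with the full motif were thus Cyp2c67, Cyp2c68, Cyp2c69 and Cyp2c70, and those with 1 or 2 mismatches were Cyp2c29, Cyp2c37, Cyp2c38, Cyp2c39, Cyp2c50 and Cyp2c55. Cyp2c23 and Cyp2c54 had no promoter sequence and are in neither set. The 10 genes in these sets are related by sequence, and no relation between motif and level was tested.

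Likeness between genes was measured as the root mean square difference of log2 values over the 8 arrays after centring each gene on its mean, where 0 is an identical pattern. Among the members it was smallest for Cyp2c50 and Cyp2c54 (0.19), Cyp2c37 and Cyp2c54 (0.24) and Cyp2c37 and Cyp2c50 (0.26). Cyp2c38 and Cyp2c39 differed by 0.57, and Cyp2c37 and Cyp2c70 by 1.44. The measure is not scaled to a gene's spread, so the size of differences counts as well as the order of groups. The SD of log2 values over the 8 arrays was 0.982 for Cyp2c38, 0.473 for Cyp2c39 and 0.717 for Cyp2c70. It was 1.85 for Cyp2c37 and 1.93 for Cyp2c29.

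Outside the family, 7658 genes were compared with 3 members chosen after their values were seen. Cyp7b1, an oxysterol hydroxylase of bile acid synthesis, was closest to Cyp2c37 (0.20), with means of 117 in tumours, 688 in non-tumour tissue and 3704 in normal diet liver. Cyp1a2, a hepatic P450 that oxidises caffeine and aromatic amines, followed (0.21), at 128, 971 and 4291 in the same order of groups, and a probe annotated to Il17a was next (0.40). For Cyp2c29 the closest were the probe annotated to Il17a (0.44), Cyp1a2 (0.45) and Sult2a8 (0.46), a sulfotransferase. Cyp2c70 was closest to Selenbp2 (0.16), which had 2073, 1976 and 7208, then to Gcat (0.26) and to Egfr (0.27), the receptor of epidermal growth factor.

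The pathway that the arachidonic acid products of Cyp2c enzymes enter was followed in a list of 22 genes, of which 19 were tested. Between tumours and non-tumour tissue 10 of the 19 fell, 3 rose and 6 were not called, with a median log2 fold change of -0.61, where 13.4% of all genes tested were lower and 12.0% higher. Cyp2j5, another epoxygenase, fell to 409 ± 36.0 (SD, n = 3) in tumours, against 2235 ± 303 in non-tumour tissue (n = 3, log2 fold change -2.13 ± 0.11, limma adjusted p = 0.000203). The fatty acid hydroxylases Cyp4a10 (-2.37, adjusted p = 0.003) and Cyp4f14 (-1.83, adjusted p = 0.0027) also fell, as did Cyp4a14 (-3.22, adjusted p = 0.0143, and 0.0584 with the mouse as a block). Ephx2, the soluble epoxide hydrolase that opens the epoxides, had 936 ± 273 in tumours and 3631 ± 454 in non-tumour tissue (-1.67, adjusted p = 0.00428), and was chosen after its values were seen. The 3 that rose, also chosen after their values were seen, were Pla2g12b, Fads1 and Fads2, and the desaturases Fads1 and Fads2, which act on the way to arachidonic acid, had 3176 ± 521 and 1452 ± 197 in tumours, against 2046 ± 329 and 791 ± 36.1 in non-tumour tissue.

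P450 enzymes need haem and electrons, and of 16 genes tested for haem supply and electron transfer 7 fell and 0 rose, with a median of -0.39. Over all genes tested 13.4% fell and 12.0% rose. Alas1, the rate-limiting enzyme of haem synthesis, had 1564 ± 915 in tumours and 7804 ± 2205 in non-tumour tissue (-2.19 ± 0.58, adjusted p = 0.0358). That call was lost without normal diet 117 or 120, any non-tumour array or tumour 186 (adjusted p = 0.0517 to 0.107). Cyb5a, the cytochrome b5 that passes electrons to P450 enzymes, had 5105 ± 326 and 10703 ± 186 in the same order (adjusted p = 0.000717), and Pgrmc1 (-0.77) and Blvrb (-1.16), a biliverdin reductase, were lower as well.

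Of 25 tested transcriptional regulators of Cyp2c genes 7 fell and 3 rose, with a median of -0.11, where 25.4% of all genes were called in either direction and 12.0% were higher, so the share that rose was at that of all genes. The count of 10 calls was 5 without tumour 117, where 20.2% of all genes were called, and 6 without non-tumour 186, non-tumour 1 or tumour 1. Nr1i3, which encodes CAR, had 80.9 ± 54.4 in tumours, 512 ± 6.17 in non-tumour tissue and 595 ± 23.5 in normal diet liver. It fell in tumours relative to non-tumour tissue (log2 fold change -2.14 ± 0.33, adjusted p = 0.00543, and 0.0273 with the mouse as a block), and non-tumour tissue differed from normal diet liver by -0.04 ± 0.37 (adjusted p = 0.972). Nr0b2, a nuclear receptor that represses others, had 197 ± 81.7 in tumours and 534 ± 13.8 in non-tumour tissue (adjusted p = 0.0221), a call lost without any 1 high fat diet array other than tumour 186 (adjusted p = 0.0608 to 0.0672). The forkhead factor Foxa3 rose to 162 ± 41.1 in tumours, against 63.6 ± 9.19 in non-tumour tissue (adjusted p = 0.00543). Hnf4a, chosen after its values were seen as the factor of the printed motif, had 814 ± 150 in tumours, 708 ± 105 in non-tumour tissue and 1092 ± 202 in normal diet liver. Its difference between tumours and non-tumour tissue was 0.47 ± 0.16 and was not called (adjusted p = 0.0761), though it was with the mouse as a block (adjusted p = 0.0133).

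Growth hormone drives sex-biased Cyp2c transcription in rodents, and 4 of 12 tested genes of that axis fell and 2 rose (3 and 0 without non-tumour 186, where 19.6% of all genes were called), with a median of -0.22. Over all genes 13.4% fell and 12.0% rose, and with counts this small the list is not set apart from them. Igf1, the hormone made under growth hormone, had 287 ± 144 in tumours and 2409 ± 78.1 in non-tumour tissue (-2.86 ± 0.39, adjusted p = 0.0035), and the receptor Ghr had 226 ± 66.6 and 593 ± 106 (-1.07, adjusted p = 0.0179), a call lost without non-tumour 186 (adjusted p = 0.0539). Stat5b, the factor that carries the signal to the nucleus and chosen after its values were seen, had 88.9 ± 8.48 in tumours and 111 ± 12.0 in non-tumour tissue and was not called (adjusted p = 0.195).

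Bile acid synthesis, in which Cyp2c70 takes a late step, had 12 of 16 tested genes lower in tumours than in non-tumour tissue and 1 higher, with a median of -1.28. Over all genes tested 13.4% were lower and 12.0% higher. Cyp8b1, the sterol hydroxylase that leads to cholic acid, had 123 ± 66.3 in tumours and 1060 ± 104 in non-tumour tissue (-2.66, adjusted p = 0.00293). Cyp27a1 (-2.02, adjusted p = 0.0112) and Cyp7b1 (-2.14, adjusted p = 0.0116, and 0.0573 with the mouse as a block) fell too, though with the local background Cyp7b1 was at -0.542 (adjusted p = 0.965). Akr1c6 was lower as well (-1.68, adjusted p = 0.00233), but its direction turned with the local background (0.24). None of the 16 was called by limma between non-tumour tissue and normal diet liver, where Cyp2c70 and 3.84% of all genes tested were. At an unadjusted p below 0.05 there were 2 of the 16, against 10.8% of all genes lower and 9.21% higher. In a fit of those 5 arrays alone 4 were called, where 816 genes in all were, and without tumour 1 there were 3, where 783 genes in all were called.

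Of 20 tested targets of CAR and PXR outside the Cyp2c family 14 were lower and 2 higher in tumours than in non-tumour tissue (10 and 2 with the mouse as a block), with a median of -1.01. Over all genes tested 13.4% were lower and 12.0% higher (11.0% and 9.77% with the block). Cyp3a11 had 986 ± 449 in tumours and 3638 ± 437 in non-tumour tissue (-1.66, adjusted p = 0.0118), and Aldh1a1, a retinal dehydrogenase, had 2990 ± 645 and 11065 ± 1372 (-1.56, adjusted p = 0.00401). In the diet comparison the direction was mixed, at 4 higher and 1 lower, where 1.81% of all genes tested were higher and 2.03% lower. When single high fat diet arrays were left out 2 to 7 were called, where 256 to 783 genes in all were called. Cyp2b9 and Cyp2b10, both P450 genes of this list, had 733 ± 179 and 385 ± 65.2 in non-tumour tissue (SD, n = 3). In normal diet liver they had 11.8 ± 7.21 and 62.3 ± 32.0 (SD, n = 2). Their log2 fold changes were 3.70 (adjusted p = 0.00105) and 2.03 (adjusted p = 0.00495), opposite in sign to those of the Cyp2c genes apart from Cyp2c38 and Cyp2c39.

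Of 21 tested genes in other Cyp2 subfamilies, 7 were lower and 4 higher in tumours than in non-tumour tissue, with a median of -0.11. Over all genes tested 13.4% were lower and 12.0% higher (11.0% and 9.77% with the mouse as a block). Cyp2f2 fell to 288 ± 230 in tumours, against 2910 ± 751 in non-tumour tissue (-3.26, adjusted p = 0.0116). Cyp2e1, the ethanol-oxidising P450, had 4627 ± 3023 and 29345 ± 4116 (-2.69, adjusted p = 0.0259, and 0.0694 with the mouse as a block), a call lost without either normal diet array or any non-tumour array (adjusted p = 0.0505 to 0.0749). Cyp2a4, a steroid hydroxylase, rose to 16940 ± 4883 in tumours, against 4788 ± 1692 in non-tumour tissue (2.11, adjusted p = 0.00439). In the retinoid list, which bears on Cyp2c39, 8 of 19 tested genes fell and 2 rose (5 and 2 with the mouse as a block), with a median of -0.15. The shares over all genes tested are again 13.4% and 12.0% (11.0% and 9.77% with the block). Rdh16, a retinol dehydrogenase, had 81.3 ± 25.3 in tumours and 526 ± 80.1 in non-tumour tissue (-2.09, adjusted p = 0.00107). Cyp26a1, the main hydroxylase of retinoic acid, had 27.7 ± 9.80 in non-tumour tissue and 310 ± 13.7 in normal diet liver (-2.11, adjusted p = 0.000894), while Cyp2c39 ran the other way in that comparison.

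**Figure D4:**
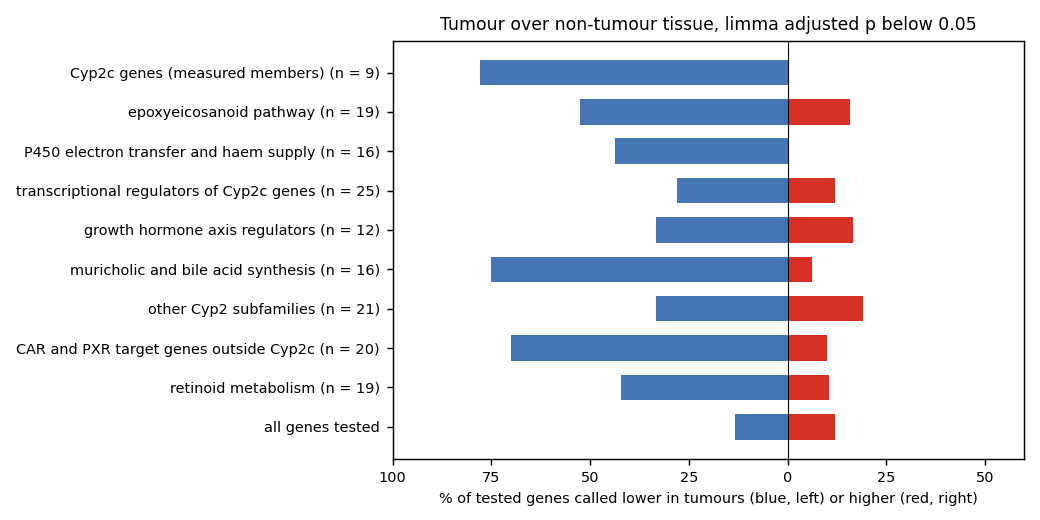
Share of tested genes called lower (blue, left of 0) or higher (red, right of 0) in tumours than in non-tumour tissue at limma adjusted p below 0.05, for the measured Cyp2c members, 8 gene lists and all genes tested, with the number tested beside each name. The members stand at 7 of 9 lower and 0 higher, bile acid synthesis at 12 and 1 of 16, CAR and PXR targets at 14 and 2 of 20, and all genes at 13.4% lower and 12.0% higher.

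Markers of other cells were read beside these differences. Over all genes tested 13.4% were called lower and 12.0% higher in tumours than in non-tumour tissue. Kupffer cell and macrophage markers summed to 502 to 698 in tumours, 1282 to 1494 in non-tumour tissue and 990 to 1488 in normal diet liver, and 3 of 8 (Clec4f, Vsig4 and Cd5l) were called lower in tumours than in non-tumour tissue, Clec4f not with the mouse as a block (limma adjusted p = 0.0632). Endothelial markers summed to 467 to 714, 718 to 790 and 791 to 994, and stellate cell and fibroblast markers to 1084 to 1564, 1454 to 2000 and 986 to 1090, in the same order of groups. These sums were not shared by all their markers. Of 7 endothelial markers tested, 1 (Pecam1) was called higher in tumours than in non-tumour tissue and 0 lower, and with counts this small the list is not set apart from all genes. The median log2 fold change was 0.08. At an unadjusted p below 0.05 by limma there were 3, where 19.6% of all genes were lower and 17.4% higher. Clec4g, at 295 ± 90.6 in tumours and 499 ± 17.1 in non-tumour tissue, was not called (adjusted p = 0.103). Of 8 stellate and fibroblast markers, Col3a1 was called higher (0.86, adjusted p = 0.0367) and Lrat lower (-0.86, adjusted p = 0.000423), and Dcn, at 551 ± 85.0 in tumours and 1092 ± 224 in non-tumour tissue, was not called (adjusted p = 0.0546). Intestinal epithelium markers summed to 2534 to 3199, 3145 to 3661 and 1560 to 1920. Most of that was Fabp2, with means of 2368, 2894 and 1032, while Cdx1 had 55, 158 and 397. Of 7 intestinal markers tested, 3 were called lower in tumours than in non-tumour tissue and 0 higher. Red blood cell markers summed to 6116 to 14459, 8286 to 29378 and 5627 to 6981. Most of that was Hbb-bs, with means of 11049, 17383 and 5865, while Alas2 had 108, 324 and 439. Of 2 red blood cell markers tested, 1 (Alas2) was called lower and 0 higher. Cholangiocyte markers summed to 95.7 to 126, 97.9 to 111 and 92.5 to 105, T and NK cell markers to 28.2 to 46.3, 27.8 to 35.8 and 27.9 to 33.9, and B cell markers to 42.6 to 64.9, 39.2 to 53.9 and 55.9 to 64.3. Pancreatic acinar markers summed to 49.1 to 87.4, 34.1 to 39.6 and 42.0 to 47.3, and adipocyte markers to 10.5 to 12.0, 10.7 to 14.6 and 12.1 to 13.7. Of the 10 hepatocyte markers, 4 (Apoa1, Fgb, Fga and Trf) were called higher and 1 (Apoa2) lower in tumours than in non-tumour tissue. The part of cell composition in the Cyp2c differences was not tested.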

How the data were processed

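Each sample was 1 single-colour array, and groups, mouse numbers and diets were taken from the labels. The deposited intensity table gives each spot's median after subtraction of the array's average blank spot, rescaled so that the median listed probe is 25, as found by comparing it with the deposited scanner intensities of the same arrays (squared correlation 1 on each array). Probes near the blank level carry no value there. The methods of scanning and image analysis beyond this are not given in the sources used here, nor are slides or scan batches.

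For the tests, normexp was run on scanner spot medians, using blank spots as the negative controls (offset 50). The local background was kept as an alternative, and which of the 2 is the better background was not tested. The values were quantile normalised and taken to log2 (limma 3.58.1, R 4.3.3). Of 19321 genes, 16800 that had a listed value on every array of some group were tested over 8 arrays and 3 groups (lmFit and eBayes, 2-sided, 5 residual degrees of freedom, Benjamini-Hochberg adjustment, threshold 0.05). Of 23473 probes, 20690 had 1 gene symbol and 2783 none in the platform table. The number of arrays limits the precision. The labels place the tumour and non-tumour samples of a mouse number in 1 liver. After removal of group means these samples correlated at 0.443, 0.148 and 0.167 for mice 117, 186 and 1. Samples of unlike mouse numbers correlated at -0.275 to 0.028. With 3 arrays per group, centred on their mean, these values cannot establish the pairing, which rests on the labels. The limma fit alone was run on simulated log2 values with independent noise on each array. Background correction, normalisation and the pairing of tissues were not part of that simulation.

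The members, the lists and the tests were chosen with earlier results of these data known. Named genes outside the family are up to 4 called genes per list and comparison by size of the log2 fold change, and the 3 nearest in pattern for 3 members, apart from those said to be chosen after their values were seen. Promoters were aligned with Biopython 1.88 from a RefSeq table of GRCm38.p6. Alternatives were another background, offset, scaling, filter or probe choice, the deposited values, the mouse as a block, the compared groups alone and each array left out.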

Additional observations from a re-analysis of the deposited data

How the results depend on the processing

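Of 27 member results (9 genes in 3 comparisons), 26 kept their direction in all alternatives run. Of the 525 pairs of a result and an alternative, 440 kept their side of the threshold, 67 were no longer past it, 17 were newly past it and 1 reversed. The members called numbered 7 for tumours over non-tumour tissue, 8 for tumours over normal diet liver and 4 for non-tumour tissue over normal diet liver. With normexp on the local background they numbered 1, 3 and 0, while 136, 224 and 3 genes in all were called; the cause was not tested. That setting also turned Cyp2c29 in non-tumour tissue over normal diet liver (1.59), Cyp2c67 in tumours over non-tumour tissue (0.51) and over normal diet liver (0.14), Akr1c6 in tumours over non-tumour tissue (0.24) and Rora in tumours over normal diet liver (-0.31). Without a filter, 2 members were called between non-tumour tissue and normal diet liver, where more genes enter the adjustment. With the mouse as a replicate block, the 7 became 3, and no member call other than those of Cyp2c23, Cyp2c37, Cyp2c50 and Cyp2c54 changed. With each array left out in turn the counts ranged over 5 to 8, 6 to 8 and 1 to 6. Cyp2c69 in tumours over non-tumour tissue was -0.16 with median scaling and -0.202 and -0.203 on the deposited values (pseudocounts 10 and 1), and Cyp2c68 in tumours over normal diet liver was 0.0879 without normal diet 117 and -0.52 without 120; the cause was not tested.

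Scaling moved the split of calls over all genes. The share called higher was 47.1%, 46.2% and 47.1% in the 3 comparisons as reported, 37.3%, 39.0% and 77.3% with median scaling, and 38.9%, 29.6% and 28.3% on the deposited values with a pseudocount of 10 (40.8%, 31.9% and 39.5% with 1). The genes called between non-tumour tissue and normal diet liver numbered 645 as reported, 1403 with median scaling, and 1103 and 826 on the deposited values. With single high fat diet arrays left out they numbered 256 to 783, so the member counts of those fits stand beside a changing total. The median of all genes moved to -0.101 and -0.18 for tumours over normal diet liver on the deposited values, and to -0.115 for non-tumour tissue over normal diet liver with a pseudocount of 1. Dim genes such as Cyp2c55 have folds reduced by the offset.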
